A study of Drosophila melanogaster with 3 samples.

Results

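The genes described here encode subunits of the vacuolar proton pump (V-ATPase) of Drosophila melanogaster, and the measurement is the binding of the zinc finger protein putzig at their promoters. Members were the protein-coding genes of the Ensembl BDGP6 annotation whose symbol starts with Vha, which gave 33 of the 13945 protein-coding genes on the 6 chromosome arms covered. They fall into 14 subunit families, 5 with 1 gene and 9 with several. In each family 1 copy was set apart as the widely used one, from general knowledge of the subunits found in epithelia. This gave 14 widely used genes and 19 numbered or lettered duplicates. The division was made with earlier results of these data known, so it was not blind to them. The choice is least certain for subunit a, where Vha100-2 was taken.

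The samples were 3 biological replicates of 1 group. They are whole embryos, 0 to 24 h old and of pooled sexes, from a transgenic line in which pzg was fused at its C-terminal end to GFP. Chromatin was sonicated to 200 to 800 bp, and DNA held by the tagged protein was immunoprecipitated and sequenced (ChIP-seq). The library descriptions name an input control, whereas the assay and antibody fields name ChIP-seq of pzg, and the labels do not settle this conflict. All replicates come from the same line, the embryos mix many cell types and stages, and there is no second condition to compare with.

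The V-ATPase is a rotary motor. Its cytosolic V1 sector hydrolyses ATP and turns a central stalk, and its membrane V0 sector uses that rotation to move protons into lysosomes, endosomes and secretory vesicles, or out of the cell across the plasma membrane of epithelia such as the Malpighian tubule. Drosophila carries extra copies of several subunits, and some of them are known mainly from the adult testis. Putzig is known as a partner of the promoter factors Trf2 and Dref, and of NURF, a complex that moves nucleosomes.

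Putzig was found at nearly every widely used pump gene and at a minority of the duplicates. A gene was called bound when a summit, the highest point of a peak in the authors' reproducible list, lay within 250 bp of one of its transcription start sites (TSSs). By this rule 19 of the 33 Vha genes were bound (57.6%), against a background of 42.6% of all protein-coding genes (5939 of 13945). The widely used genes accounted for 13 of 14 (92.9%) and the duplicates for 6 of 19 (31.6%). The widely used share lay well above the background. The duplicate share was below it but much nearer, and with only 19 genes it is not read as a depletion. The strongest of all 6522 reproducible summits lay at Vha55. Because the samples form 1 group and genes are not replicates, these shares are descriptions and no test was made of them.

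**Figure D1:**
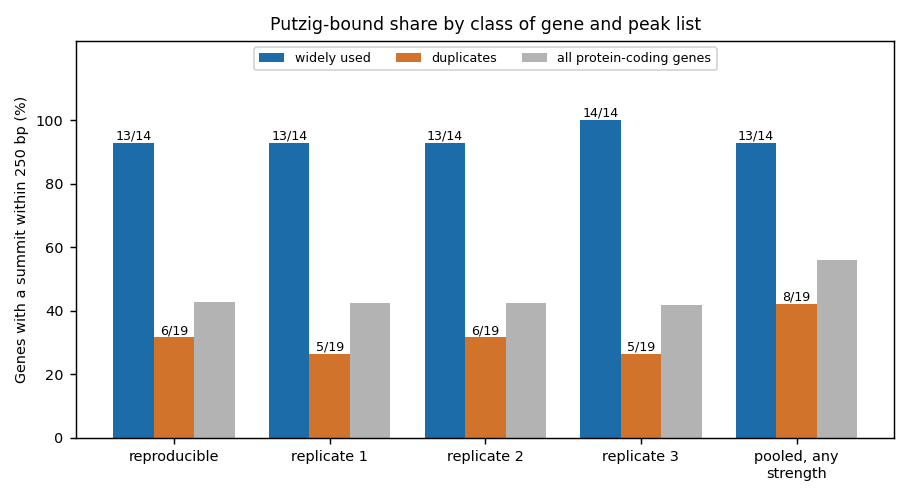
Percentage of genes with a summit within 250 bp of a TSS (vertical axis) for the widely used Vha genes, the duplicates and all protein-coding genes, in the reproducible list, in the 6522 strongest entries of each replicate, and in the pooled list at any strength. Bars are single shares with counts above them, and in every list the widely used genes (92.9% or more) are above the duplicates (42.1% or less).

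The split was present in each replicate taken alone. Among the 6522 strongest entries of each replicate, summits were found at 13 of 14 widely used genes in replicate 1, 13 in replicate 2 and 14 in replicate 3. The duplicates gave 5, 6 and 5 of 19. The matching background shares were 42.4%, 42.3% and 41.7%. Over the replicates the widely used share was 95.2% ± 4.12 (SD, n = 3) and the duplicate share 28.1% ± 3.04 (SD, n = 3), and the ranges did not overlap (92.9% to 100% and 26.3% to 31.6%). By each replicate's own summits, 17 Vha genes were bound in every replicate, against a background of 39.2%. When only reproducible summits lying inside one of the strongest entries of all 3 replicates were counted, 15 Vha genes were bound, against a background of 38.8%. In the pooled list at any strength, which includes background entries by design, 21 were bound, against a background of 55.9%.

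Promoter sequence is given for 4 bound genes (Vha55, VhaSFD, Vha68-2 and Vha68-1) and for the unbound Vha68-3, a near neighbour of Vha68-2. Together they hold the strongest site, the 2 Vha promoters with a complete DNA replication-related element (DRE), the site bound by Dref, and the 3 genes for the A subunit. Each run ends at the base just before the gene's 5′ end, is written 5′ to 3′ on the gene's strand, and stops short of the nearest exon upstream or at 250 bases. Positions are release 6 (dm6) of the RefSeq genome: Vha55 is chr3R:12627830-12628030 on the minus strand, VhaSFD chr2L:16727827-16728034 minus, Vha68-2 chr2L:12974072-12974321 plus, Vha68-1 chr2L:13004108-13004357 minus and Vha68-3 chr2L:12978608-12978785 plus. Capitals mark the DRE (TATCGATA), the core of the promoter element Motif 1 (GGTCACAC) and the short core CGATA bound by the insulator protein BEAF-32, on either strand. The DRE contains CGATA on both strands.
Vha55: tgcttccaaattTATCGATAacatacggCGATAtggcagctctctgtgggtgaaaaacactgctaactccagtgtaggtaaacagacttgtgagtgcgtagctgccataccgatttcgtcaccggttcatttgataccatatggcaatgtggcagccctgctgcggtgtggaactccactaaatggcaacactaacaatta
VhaSFD: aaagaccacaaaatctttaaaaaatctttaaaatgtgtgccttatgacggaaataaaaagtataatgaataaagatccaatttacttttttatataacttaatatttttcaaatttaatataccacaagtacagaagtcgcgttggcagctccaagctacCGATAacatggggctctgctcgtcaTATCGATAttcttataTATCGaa
Vha68-2: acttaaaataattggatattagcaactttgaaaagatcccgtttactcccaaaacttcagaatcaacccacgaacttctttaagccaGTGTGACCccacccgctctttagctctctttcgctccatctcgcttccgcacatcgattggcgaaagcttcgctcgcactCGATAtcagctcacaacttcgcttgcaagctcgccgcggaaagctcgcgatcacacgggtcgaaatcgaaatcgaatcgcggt
Vha68-1: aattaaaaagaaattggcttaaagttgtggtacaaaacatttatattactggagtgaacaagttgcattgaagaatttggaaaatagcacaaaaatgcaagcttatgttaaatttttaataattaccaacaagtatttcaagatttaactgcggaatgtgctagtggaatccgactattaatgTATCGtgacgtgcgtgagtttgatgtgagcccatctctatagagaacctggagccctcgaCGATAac
Vha68-3: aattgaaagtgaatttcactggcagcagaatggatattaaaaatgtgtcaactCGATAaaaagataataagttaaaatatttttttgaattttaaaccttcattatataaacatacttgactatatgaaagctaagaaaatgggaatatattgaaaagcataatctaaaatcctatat
The Vha55 run is the whole stretch between the start sites of Vha55 and Snx3, its DRE lies near the Snx3 end, and the summit is base 151 of the run. In VhaSFD the summit, base 196, falls beside the DRE. The Vha68-2 summit is base 152, after the Motif 1 match, and the Vha68-1 summit is base 177.

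The headpiece of V1 holds the ATP-binding subunits A and B. Vha55, the only gene for subunit B, had a signal of 15079 in the reproducible list. Signal is the peak value deposited by the authors, whose scale is not named, so it was compared only within a list. Its peak (chr3R:12627557-12628276) was 720 bp wide, with the summit 51 bp upstream of the Vha55 TSS. In the replicates that peak had signals of 6726, 5611 and 2819 and was the strongest entry of all 3. The same summit lay 151 bp upstream of Snx3, a sorting nexin gene on the opposite strand, and the peak cannot be assigned to either gene.

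Subunit A, which carries the catalytic site, has 3 genes on chromosome arm 2L, and they differed. Vha68-2, the widely used copy, had a signal of 3001 at a summit 99 bp upstream, rank 763 of 6522, with 1403, 1090 and 541 in replicates 1, 2 and 3. Vha68-1 had 1576, rank 2254, at 74 bp upstream, with 763, 596 and 219. In every replicate Vha68-2 was the higher of the pair. Vha68-3 begins 178 bp after the end of Vha68-2 on the same strand and had no entry within 250 bp of its TSS in the pooled list or in any replicate list. Its nearest reproducible summit was the one at Vha68-2, 4563 bp upstream.

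**Figure D2:**
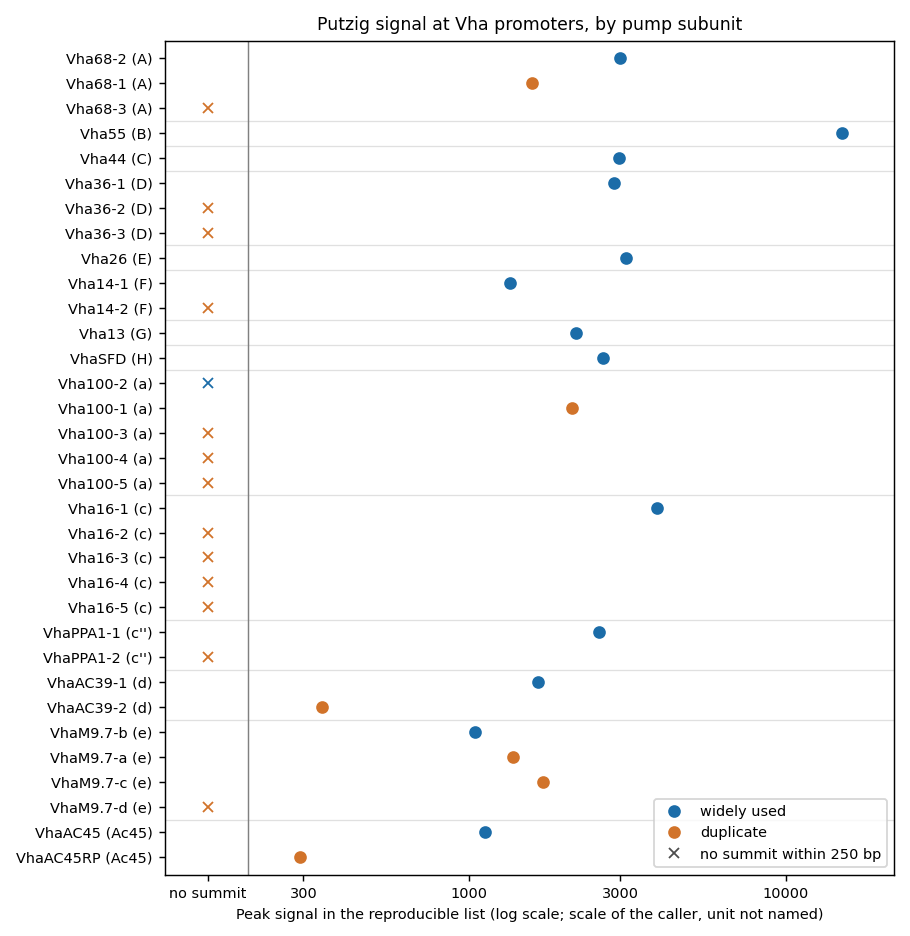
Signal of the strongest reproducible summit within 250 bp of each Vha gene (horizontal log axis, scale of the authors' caller), grouped by subunit given in brackets, with crosses for genes with no such summit. Vha55 stands alone at 15079, the other bound genes lie between 292 and 3908, and most families with several genes hold both bound and unbound copies.

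The central stalk, which turns inside the headpiece, is made of subunits D and F. Vha36-1 (D) had a signal of 2877, rank 852, at 51 bp upstream, with 1173, 1206 and 527 in the replicates. That summit was 21 bp upstream of CG8187, whose start site lies 72 bp away on the opposite strand. Vha14-1 (F) had 1345, rank 2686, with 580, 594 and 205. The duplicates Vha36-2, Vha36-3 and Vha14-2 had no entry within 250 bp of a TSS in the pooled list or any replicate list, so within that distance in both stalk families the putzig signal lay at the widely used copy alone.

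The peripheral stalks hold the headpiece still, and the genes for their subunits, as for C and H, are single copies. Vha26 (E) had a signal of 3139, rank 689, at 193 bp upstream of Vha26 and 111 bp upstream of noi, a splicing factor gene on the opposite strand. Its summit lay inside strong entries of replicates 1 and 2 (1567 and 1313) and inside none of replicate 3, whose own summit was 61 bp upstream with a signal of 329.8 and rank 1492. Replicates 1 and 2 also listed a weaker summit nearer the start site, 33 bp downstream (302.3) and 11 bp upstream (758.4). Whether the replicate 3 summit matches these or the main summit cannot be told from the lists. Vha13 (G) had 2173, rank 1454, with 969, 708 and 502. Vha44 (C), which joins V1 to V0, had 2965, rank 794, with 1225, 1237 and 526. Its summit lay 80 bp upstream of Vha44 and 43 bp upstream of Hmgs, the HMG-CoA synthase gene of the mevalonate pathway, within non-coding exon sequence annotated to Hmgs. VhaSFD (H), a regulatory subunit, had 2650, rank 1008, at 13 bp upstream, with 1203, 1076 and 415. All 8 widely used V1 genes were thus bound, and 1 of 5 V1 duplicates was.

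In V0 the c ring of proteolipids carries the protons. Vha16-1 had the second-highest signal of the Vha genes, 3908, rank 402, at 93 bp upstream, with 1891, 1371 and 682 in the replicates. None of the 4 further Vha16 genes was bound. Vha16-2 and Vha16-3 lie 985 bp apart, and their nearest reproducible summits were 18698 and 20270 bp away. For Vha16-4 the distance was 3675 bp. Vha16-5 had a summit 282 bp upstream, just outside the window, with a signal of 1651. That summit was 20 bp upstream of CG12299 on the opposite strand.

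VhaPPA1-1, the widely used gene for the related c″ proteolipid, had a signal of 2564, rank 1072, at 73 bp upstream, with 1266, 1064 and 266 in the replicates. VhaPPA1-2 lies 2052 bp from it on the same strand, with the ribosomal protein gene RpS5b between them, and had no reproducible summit. Its nearest was 1327 bp upstream, at RpS5b. Weak entries (29.6 in replicate 1, 17.4 in replicate 3) were listed within 250 bp of its start site. The sequences upstream of this bound and unbound pair are shown for comparison, chr3R:14904062-14904311 and chr3R:14900278-14900431, both on the minus strand, with the same capitals.
VhaPPA1-1: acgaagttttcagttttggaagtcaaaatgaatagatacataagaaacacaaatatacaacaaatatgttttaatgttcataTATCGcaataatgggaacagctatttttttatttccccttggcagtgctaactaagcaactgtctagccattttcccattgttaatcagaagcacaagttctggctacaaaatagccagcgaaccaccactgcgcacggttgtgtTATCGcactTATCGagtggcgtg
VhaPPA1-2: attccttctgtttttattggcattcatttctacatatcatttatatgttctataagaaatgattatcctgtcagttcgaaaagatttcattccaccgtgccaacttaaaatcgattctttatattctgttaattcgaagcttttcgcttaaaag
Neither run holds a DRE or a Motif 1 core. VhaPPA1-1 has 3 CGATA matches and VhaPPA1-2 has 0.

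Subunit a forms the channels through which protons reach the ring, and has 5 genes. Vha100-1, known from synaptic vesicles of neurons, was bound with a signal of 2111, rank 1516, and with 1053, 863 and 218 in the replicates. Its summit was 170 bp upstream of Vha100-1 and 51 bp upstream of dgt6, an augmin gene of the mitotic spindle. Vha100-2, the uncertain choice for the widely used copy, was the only gene of that class not bound. With the first-numbered gene of each family as the widely used copy, and so Vha100-1 for subunit a, the counts were 14 of 14 and 5 of 19. A peak with a signal of 2984, rank 779 (chr3R:18399086-18399951), covered the 5′ end of Vha100-2. Its summit, however, lay 512 bp upstream of that end and 28 bp upstream of Vti1b, a vesicle SNARE gene on the opposite strand. That peak had signals of 1393.5, 1158.6 and 542.7 in the replicates, at 504, 507 and 511 bp upstream. A second, weak summit of 267 lay 332 bp upstream of an internal start site. In replicate 3 alone an entry 62 bp upstream (121.6, rank 3916) met the rule, which is why that replicate gave 14 of 14. Vha100-4, separated from Vha100-2 by 517 bp, and Vha100-5 had only weak pooled entries within 250 bp of their start sites (73.2 and 86.0, ranks 14425 and 11972), and Vha100-3 had none.

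Subunit d couples the rotor to the ring. VhaAC39-1 had a signal of 1647, rank 2151, at 33 bp upstream, with 727, 648 and 263 in the replicates, and a second summit of 304 lay 167 bp downstream. VhaAC39-2 had 343, rank 5651, with 170, 171 and 18. The entry in replicate 3 ranked 23972, far below the strongest 6522, so its binding was seen in 2 of 3 replicates.

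The small membrane subunit e has 4 genes, and 3 were bound. VhaM9.7-b, the widely used copy, had a signal of 1044, rank 3362, with 519, 625 and 156 in the replicates. VhaM9.7-a had 1380 (626, 580 and 181) and VhaM9.7-c had 1716 (768, 691 and 271). By summits within 250 bp, both duplicates had higher signals than the widely used copy in the reproducible list and in replicates 1 and 3. In replicate 2 the entry holding the VhaM9.7-b summit (625) was above that of VhaM9.7-a (580), but its own summit lay 369 bp upstream. The replicate 2 summit nearest to VhaM9.7-b, 67 bp upstream, had a signal of 524.2, below both duplicates. Replicates 1 and 3 also had entries outside the window, 371 and 402 bp upstream of VhaM9.7-b. Their signals, 772.3 and 296.8, were above those of both duplicates. The COX8 start site lies 415 bp upstream on the opposite strand. The VhaM9.7-a summit was 217 bp upstream and only 18 bp upstream of CG11586, but a second summit of 540 lay 15 bp upstream of VhaM9.7-a itself. VhaM9.7-c lay inside an intron of CG18675 and Teh2, with its summit 19 bp upstream. VhaM9.7-d had no entry within 250 bp of its TSS in the pooled list or any replicate list.

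The accessory protein Ac45 has a widely used gene, VhaAC45, and a relative, VhaAC45RP, known from neurons. VhaAC45 had a signal of 1123, rank 3150, at 137 bp upstream, with 516 and 529 in replicates 1 and 2. The summit lay inside no entry of replicate 3, which had its own at 45 bp upstream (89.1, rank 4617). VhaAC45RP had 292, the lowest of the bound members, with 89, 132 and 62 in the replicates, and its rank in replicate 1, 6883, was beyond the strongest 6522.

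**Figure D3:**
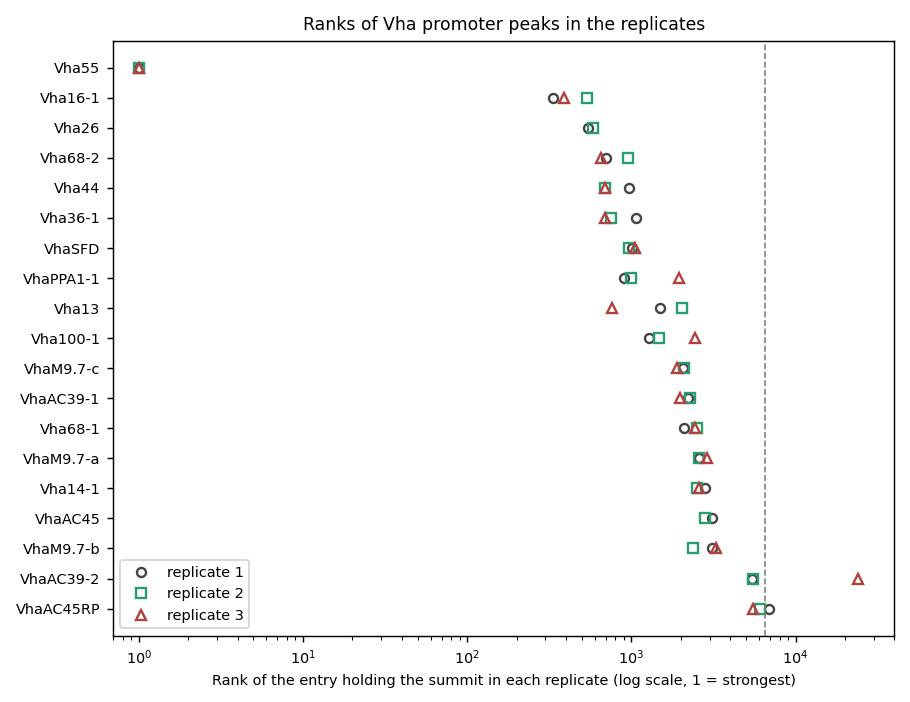
Rank in each replicate list of the entry that holds the reproducible summit of each bound Vha gene (horizontal log axis, 1 is the strongest), ordered by rank in the reproducible list. The dashed line is rank 6522; VhaAC45RP in replicate 1 and VhaAC39-2 in replicate 3 lie beyond it, and Vha26 and VhaAC45 have no point for replicate 3.

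The median signal of the 19 bound Vha genes was 2111 (292 to 15079), beside 1517 over all 5939 bound protein-coding genes (235 to 15079). The 13 bound widely used genes had a median of 2650 (1044 to 15079) and the 6 bound duplicates 1478 (292 to 2111). The classes overlap, since Vha100-1, VhaM9.7-c, Vha68-1 and VhaM9.7-a were above the lowest widely used genes.

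Of the 14 unbound genes, 13 were duplicates, and 9 of these had no entry within 250 bp of a TSS in the pooled list or any replicate list. Every word of 31 bases within 250 bp of the 5′ end occurred only once in the genome in all 33 genes (100%), so at that word length no copies of a family share promoter sequence. Read length and mapping settings are not stated in the labels or notes.

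The strongest summit of every bound Vha gene lay upstream of its start site, although VhaAC39-1 had a weaker one downstream. All 19 main summits were upstream of the Vha TSS, with a median of 73 bp (13 to 217 bp). Of all bound protein-coding genes, 86.4% had an upstream summit, and the median was 44 bp upstream. With only 19 genes, neither value is read as a difference. The summits at VhaM9.7-a (217 bp), Vha26 (193 bp) and Vha100-1 (170 bp) lay nearer to a neighbour's start site. That of VhaAC39-2 (179 bp) did not. Intergenic sequence held 17 of the 19 main summits. The like share over all bound genes was not counted, so this is not read as a trait of the Vha genes. Peaks at Vha genes had a median width of 468 bp, beside 427 bp over all bound genes.

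**Figure D4:**
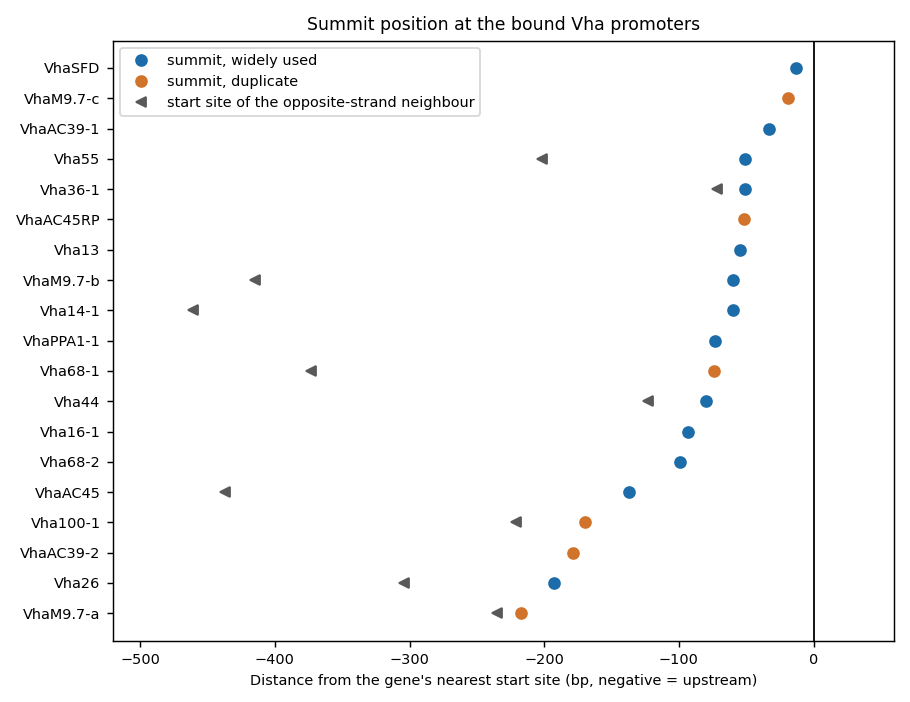
Distance of the main summit from the nearest TSS of each bound Vha gene (horizontal axis in bp, negative is upstream, circles), with triangles for the start site of an opposite-strand neighbour within 500 bp. All circles lie between -217 and -13 bp, and at 6 genes the summit is also within 250 bp of a neighbour's start site.

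Promoter neighbours differed between bound and unbound genes. A protein-coding neighbour on the opposite strand, with its start site within 500 bp upstream, was found at 10 of 19 bound and 2 of 14 unbound Vha genes. It was found at 7 of 14 widely used genes, 5 of 19 duplicates and 26.4% of all protein-coding genes. Over the whole annotation, 77.4% of genes with such a neighbour were bound (2852 of 3687) and 30.1% of those without (3087 of 10258), so neighbour status moves with the bound share. Among Vha genes with such a neighbour, 7 of 7 widely used genes and 3 of 5 duplicates were bound. Among those without, 6 of 7 widely used genes and 3 of 14 duplicates were bound. These groups are small, and whether neighbour status accounts for the difference between the classes was not tested. The widely used genes with no such neighbour were Vha68-2, Vha13, VhaSFD, Vha100-2, Vha16-1, VhaPPA1-1 and VhaAC39-1, of which all but Vha100-2 were bound. The main summit was shared with a second protein-coding gene at 6 of 19 bound Vha genes (31.6%), beside 39.8% of all bound genes.

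Motifs within 100 bp of the main summit were counted on both strands, beside all 4772 summits that were the main one of a protein-coding gene. The DRE was present at 1 of 19 Vha summits, VhaSFD, where its centre was 6 bp from the summit, and at 17.4% of all. The Vha55 DRE lay 134 bp from the summit, outside this window. The Motif 1 core was present at 2 of 19, Vha68-2 and Vha14-1 (16.1% of all), CAGCTG at 4 (20.6%), CGATA at 11 (57.5%) and the TATA box TATAAAA at 2 (12.0%). CAGCGCTA, taken here as the core of Motif 7, was present at 0 (0.65%). Only this exact string was matched, so other spellings of Motif 7 were not counted. The CGATA share at Vha summits was close to that of all summits. The other counts are too small for a difference of a few matches to be read, and no test was made.

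The palindrome TCACGTGA is the CLEAR element, the site through which Mitf in flies and its relative TFEB in mammals are known to drive lysosomal genes, and it contains the shorter core CACGTG. It was rare, at 8 of all 4772 summits (0.168%), and 1 of these was a Vha summit, Vha44, with the element 36 bp away. Within 250 bp of the 5′ end it was found at 40 of 13945 protein-coding promoters (0.287%), and the Vha genes among them were Vha44 and Vha16-1, both bound. CACGTG in that window was found at 4 of 19 bound and 2 of 14 unbound Vha genes, beside 6.98% of all. In the same window the DRE was found at 2 bound and 0 unbound genes (9.9% of all) and the Motif 1 core at 4 and 0 (8.47%). A match shows only that the letters are present.

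Genes chosen as related to the pump or the lysosome were read from 5 lists of 40 genes in all. By the rule used for the Vha genes 32 were bound (80.0%, against the background of 42.6%). All 4 pump regulators were bound, with signals of 1929 at mtd, 854 at Rbcn-3A and 769 at Rbcn-3B, the rabconnectins that help V1 and V0 assemble, and 329 at Mitf. Of the 13 nutrient-sensing genes that work at the lysosome surface, 12 were bound, led by RagC-D (3871), Rheb (3043), Lamtor4 (2943) and Nprl3 (2627). The exception was mTor, which shares a divergent promoter with Vha68-1: the Vha68-1 summit lay 299 bp upstream of mTor, just outside the window.

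All 7 genes of the HOPS fusion machinery and its Rab were bound, led by Vps16A (4441), Rab7 (3130), Vps39 (2411) and car (1139). The weakest, lt (363), had its summit inside a strong entry of 1 replicate only. Of the 32 bound genes in the 5 lists, 29 had their summit inside strong entries of all 3 replicates. The like counts were 5413 of the 5939 bound protein-coding genes and 15 of the 19 bound Vha genes. The count in the lists is close to the general rate and is not read as a trait of these genes. In the list of chloride transporters, ClC-c (2574) and ClC-b (2113) were bound and ClC-a was not. Lysosomal enzymes and membrane proteins were bound less uniformly, at 7 of 13, led by spin (3451), CtsL1 (2521), Npc1a (2089) and CtsB (1663). This last share, 53.8%, was the nearest of the 5 to the background.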

How the data were processed

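ChIP-seq peak lists were deposited for 3 replicates of 1 group, for the pooled replicates and for a reproducible set thresholded by the irreproducible discovery rate, on dm6, per the deposited notes. The signal column is the peak signal of the authors' caller, in no named unit. The deposited −log10 q value has a ceiling and was not used for ranking, and the deposited summit offset (unit: other, bp from the peak start) gave positions. Aligner, caller, read length and depth: not given in the sources used here, so no counting error can be stated. Each replicate list and the pooled list has 30000 entries, including background by design. Strengths in replicates were read among their 6522 strongest entries, the length of the reproducible list, which fixes list size and so limits how far counts can differ. The reproducible list derives from the same reads and is not independent of the replicates.

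Start sites came from the Ensembl annotation and sequence from the RefSeq genome, where 99.8% of 30593 annotated start codons read ATG. A gene was bound when any TSS lay within 250 bp of a summit. All Vha genes, genes sharing a Vha summit, and in each pathway list the 4 strongest bound genes and the unbound ones where at most 5 were unbound were named. Other neighbours were named after their values were seen. Members, classes and lists were chosen with earlier results of these data known, and 3 pathway genes were matched through older symbols. Alternatives were the window, the TSS used, the peak set, each replicate left out, peak overlap, the class division and the motif window. No test across genes was made. Assignment was tested on simulated data, in which 400 of 400 planted summits and 200 of 200 planted motifs were recovered. Python 3.11.15, pandas 2.3.3, numpy 2.4.6 and matplotlib 3.10.9 were used.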

Additional observations from a re-analysis of the deposited data

How the results depend on the processing

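The widely used genes had the higher bound share under every alternative run. The count of bound Vha genes, 19, ranged from 15 to 21, with 10 to 14 of the 14 widely used genes and 4 to 8 of the 19 duplicates, except under the strictest rule, while the share of all protein-coding genes ranged from 28.3% to 55.9%. When a peak had to overlap an entry in all 3 replicates by 50% of each, 10 Vha genes were left, 8 widely used and 2 duplicates, against 22.2% of all protein-coding genes. Leaving out replicate 1, 2 or 3 gave 15 to 18 Vha genes, 11 to 13 widely used genes and 4 to 5 duplicates, against 39.1% to 41.3% of all protein-coding genes. Windows of 500 or 1000 bp added Vha100-2 and Vha16-5. Crediting each summit only to its nearest TSS removed Vha44, Vha36-1, Vha26 and Vha100-1. With the first-numbered gene of each family as the widely used copy, the counts were 14 of 14 and 5 of 19, and with Vha100-1 and Vha68-1 counted as widely used too they were 15 of 16 and 4 of 17. For the pathway genes only the window was varied. At 100 bp 26 of 40 were bound, against 35.0% of all protein-coding genes, and at 500 bp 33 were, against 46.6%. Motif counts rose or stayed the same as the window widened, and that of CAGCGCTA stayed at 0. No paired analysis was possible because there is 1 group. Depth is unknown, so an unbound call says only that no summit was listed.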

Other observations

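The mitochondrial F-type ATP synthase is the other rotary ATPase of the cell, and its genes were looked up after the Vha values had been seen. Summits lay within 250 bp of all 12 subunit genes listed, blw and those with an ATPsyn name not ending in L, against 42.6% of all protein-coding genes. Subunit genes under other symbols were not counted. Their signals ran from 379 at ATPsyndelta to 11496 at ATPsynF, rank 4, with 10482 at ATPsynC, rank 12, and 3984 at blw, the alpha subunit gene. None of the 4 further genes whose names end in L, ATPsynCF6L, ATPsynGL, ATPsynbetaL and ATPsynepsilonL, was bound. ATP6AP2, a pump accessory gene whose older symbol began with Vha and which the naming rule therefore misses, had a signal of 2423, rank 1208, at a summit 18 bp upstream.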
